A study of Mus musculus with 10 samples.

Results

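In cultured muscle stem cells (MuSCs) with deleted Kmt5b, the histone mark H4K20me1 was compared with elongating RNA polymerase II, phosphorylated at serine 2 (Pol II S2P). The comparison rested on the 4 libraries labelled Pax7CreERT/Suv4-20h1KO (sKO), 2 for each antibody, of 10 libraries in the series. The 4 matching libraries labelled Pax7CreERT/Suv4-20h1WT (Ctrl) served only to show where sKO differed, and 2 IgG libraries were not analysed here. Both genotypes carried the tamoxifen-inducible Cre under Pax7, so deletion was directed to satellite cells, and the study describes the libraries of a genotype as biological replicates. Cells were isolated from adult mice and expanded in culture before CUT&RUN, which sequences the DNA that an antibody-guided nuclease cuts free around its target. The labels give no ages or animal numbers, and the samples were bulk cultures, so fewer marked cells and a lower mark per cell cannot be told apart.

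Each deposited value was a score, a whole number of spike-in normalised coverage over a peak. The peaks of an antibody were 1 set shared by its 4 libraries, so peak positions carried no genotype difference. A gene's score was the sum over all autosomal peaks listed with it, and a gene was taken to carry a mark when that sum had a mean above 50 over both sKO libraries. In all, 17386 autosomal genes were listed with a peak of either antibody, 41008 autosomal peaks belonged to H4K20me1 and 50698 to Pol II S2P.

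H4K20me1 is placed by KMT5A, and the KMT5B and KMT5C enzymes carry the same lysine on to the di- and trimethylated states. The mark is known to spread over the bodies of transcribed genes and to rise and fall with the cell cycle. Phosphorylation of serine 2 in the repeat tail of the largest polymerase subunit is placed during elongation, so Pol II S2P is known to build up along gene bodies and beyond their ends.

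Libraries of 1 antibody and genotype agreed closely. The autosomal sums of the sKO pair differed 1.09-fold for H4K20me1 and 1.42-fold for Pol II S2P. Spearman's rank correlation between the pair over genes carrying the mark was 0.995 and 0.964, and over single peaks 0.973 and 0.884. The Ctrl pair differed in the spread of Pol II S2P score per kb of peak, with interquartile ranges on the log2 scale of 0.97 and 0.56. Total autosomal H4K20me1 score was 13533657 and 18103713 in Ctrl against 29655556 and 32238286 in sKO, without overlap. Total Pol II S2P score was 3224367 and 4201202 in Ctrl against 4836482 and 3401198 in sKO, with overlap.

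The satellite cell label was set against its markers. Des (the muscle intermediate filament), Itga7, Sdc4, Vcam1, Pax7 and Myod1 each carried Pol II S2P, Myf5 had no Pol II S2P peak, and Cdh15 was listed with no peak of either antibody. Of 13 autosomal marker genes of other cell types, 3 carried Pol II S2P. These were Cd68, whose peaks also lay on the neighbouring Eif4a1, the creatine kinase gene Ckm and the endothelial gene Pecam1. Pdgfra, Kdr, Cdh5, Ptprc and Myh4 carried H4K20me1 alone, and Ly6a, Dcn, Adgre1 and Acta1 had no listed peak. The part of such cells in the results was not tested.

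Both marks were carried by 5908 of the 17386 genes (34.0%), H4K20me1 alone by 7848 (45.1%), Pol II S2P alone by 2724 (15.7%) and neither above the limit by 906 (5.21%). Of the 8632 genes with Pol II S2P, 68.4% carried H4K20me1, whereas 42.9% of the 13756 genes with H4K20me1 carried Pol II S2P. Taken 1 library pair at a time, the first share was 68.3% and 68.8% in sKO and 66.9% and 67.2% in Ctrl. The class of a gene was the same in both sKO pairs for 16362 genes (94.1%). The limit touched Pol II S2P more than H4K20me1, since 1093 genes had a mean Pol II S2P score between 40 and 60 and 16 genes had such a H4K20me1 score.

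The classes differed in the length and kind of their genes. Genes with both marks had a median length of 41.7 kb, those with H4K20me1 alone 23.3 kb and those with Pol II S2P alone 8.27 kb. Protein-coding genes made up 5641 of the 5908 with both marks. Among 2222 listed lncRNA genes, 235 (10.6%) carried both marks and 1235 (55.6%) H4K20me1 alone.

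The class with Pol II S2P alone was not a class outside H4K20me1 domains. The tables list no peak with more than 1 gene, and 1667 of the 2724 genes were overlapped by a H4K20me1 peak listed with another gene. When any overlapping H4K20me1 peak was counted, 87.8% of genes with Pol II S2P carried the mark. Among the 2136 protein-coding genes with Pol II S2P alone, 727 were touched by no H4K20me1 peak. These 727 genes were short, with a median of 6.96 kb, and 62.9% were under 10 kb against 8.12% of protein-coding genes with both marks. Their median distance to the nearest H4K20me1 peak was 6.87 kb.

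Gene starts with Pol II S2P had the same median CG content inside and outside H4K20me1 peaks. The 200 bases upstream of 3 gene starts (GRCm38, read from the RefSeq assembly along the gene's strand) are shown with every CG in capitals. The median number of CG differed between starts with and without a Pol II S2P peak. Each of the 3 genes had a Pol II S2P peak within 1 kb of its start. The myogenic regulator gene Myod1 started outside H4K20me1 peaks, and the integrin gene Itga7 and Kmt5c started inside one. The genes were chosen after their values were seen.
Myod1, chr7:46376274-46376473, plus strand: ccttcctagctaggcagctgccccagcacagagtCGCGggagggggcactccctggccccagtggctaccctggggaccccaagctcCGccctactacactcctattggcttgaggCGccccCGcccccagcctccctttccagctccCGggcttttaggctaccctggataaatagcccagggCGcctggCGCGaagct
Itga7, chr10:128933618-128933817, plus strand: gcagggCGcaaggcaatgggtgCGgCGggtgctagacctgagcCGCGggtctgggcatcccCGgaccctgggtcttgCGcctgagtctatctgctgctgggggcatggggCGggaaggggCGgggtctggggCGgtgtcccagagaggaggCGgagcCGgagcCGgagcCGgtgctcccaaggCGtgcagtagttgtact
Kmt5c, chr7:4739915-4740114, plus strand: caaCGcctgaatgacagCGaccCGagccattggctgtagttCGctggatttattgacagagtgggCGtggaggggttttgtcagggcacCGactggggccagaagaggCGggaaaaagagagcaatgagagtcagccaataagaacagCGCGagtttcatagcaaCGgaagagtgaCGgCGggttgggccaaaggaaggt
The windows held 9, 15 and 12 CG. Across all 20807 autosomal protein-coding starts the median was 7 CG in such a window, and 90.6% held at least 1. Starts with a Pol II S2P peak within 1 kb had a median of 13 CG both inside (4019 starts) and outside (3701 starts) H4K20me1 peaks, with median GC of 60.5% in both. Starts with no such peak had a median of 6 CG inside and 2 CG outside. H4K20me1 peaks covered 52.1% of starts with a Pol II S2P peak and 37.5% of starts without.

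Some of the highest Pol II S2P scores per kb fell on short genes with no H4K20me1 peak. Among protein-coding genes with Pol II S2P and no H4K20me1 peak, the 6 with the highest Pol II S2P per kb of gene were Rps12, Actb, Atf4, Tnfrsf12a, Fkbp2 and Id3. Rps12 (chr10:23785183-23787275, a small ribosomal subunit protein) had Pol II S2P sums of 3274 and 2016 in sKO and 2238 and 2588 in Ctrl. Actb (chr5:142903115-142906754, cytoplasmic actin) had 4447 and 2755 in sKO and 3116 and 3591 in Ctrl. For both genes the Ctrl values lay between the 2 sKO values. The nearest H4K20me1 peak was 13.7 kb from Rps12, 17.9 kb from Actb and 52.8 kb from Id3, the gene of a dominant-negative helix-loop-helix factor, but only 0.185 kb from the stress-response factor gene Atf4. The Tnfrsf12a peak also lay on Hcfc1r1 and Thoc6. No share of the Pol II S2P peak length had to lie in the gene, and in these 6 it ran from 10.4% (Rps12) to 60% (Fkbp2). Score from outside such short genes therefore raised their values per kb.

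Among genes with both marks, 5 of those with the highest Pol II S2P per kb of gene were Actg1 (cytoplasmic actin), Fxyd4, Lgals1 (a secreted lectin), Tpt1 and Chmp2a. H4K20me1 peaks covered 3 of them in part, with 3.9% of the body of Actg1, 7.1% of Lgals1 and 50.3% of Tpt1 inside one. Fxyd4 and Chmp2a were covered in full. Only 35.3% of the Pol II S2P peak length listed with Fxyd4 lay in the gene, and the Chmp2a peaks were shared with Ube2m. Actg1 had Pol II S2P sums of 2052 and 1324 and H4K20me1 sums of 111 and 119 in sKO.

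Genes with the highest H4K20me1 per kb of gene were ranked separately among those with both marks and those with no Pol II S2P peak. To keep broad peaks from inflating short genes, at least 50% of the H4K20me1 peak length had to lie in the gene. Genes failing this condition could stand higher, as Fxyd4 did at 191 per kb beside 136 for Vps4b. Among genes with both marks the 6 highest were Vps4b (an endosomal ATPase), Gm43191, Casp2 (a caspase), Cry2 (a circadian repressor), Cep72 (a centrosomal protein) and Fignl1. Their Pol II S2P ran from 2.73 to 4.76 per kb of gene, beside a median of 4.87 over all genes with both marks. Vps4b (chr1:106764071-106796728) had H4K20me1 sums of 4288 and 4624 against Pol II S2P sums of 120 and 92 in sKO. Among genes with no Pol II S2P peak, Irgm1 (an immunity-related GTPase), Dennd3, Acp1, Rxfp3, Alg10b and Dll4 (a Notch ligand) led. Irgm1 (chr11:48861968-48871683) had 1208 and 1360, and Dll4 had 1200 and 1204. All 12 genes were covered by H4K20me1 peaks over 94.6% to 100% of their length. Of the 6 with both marks, each had listed H4K20me1 peaks that also lay on a neighbour, such as Kdsr for Vps4b.

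The plot of genes chosen by rank, by library, sets these values side by side.

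**Figure D1:**
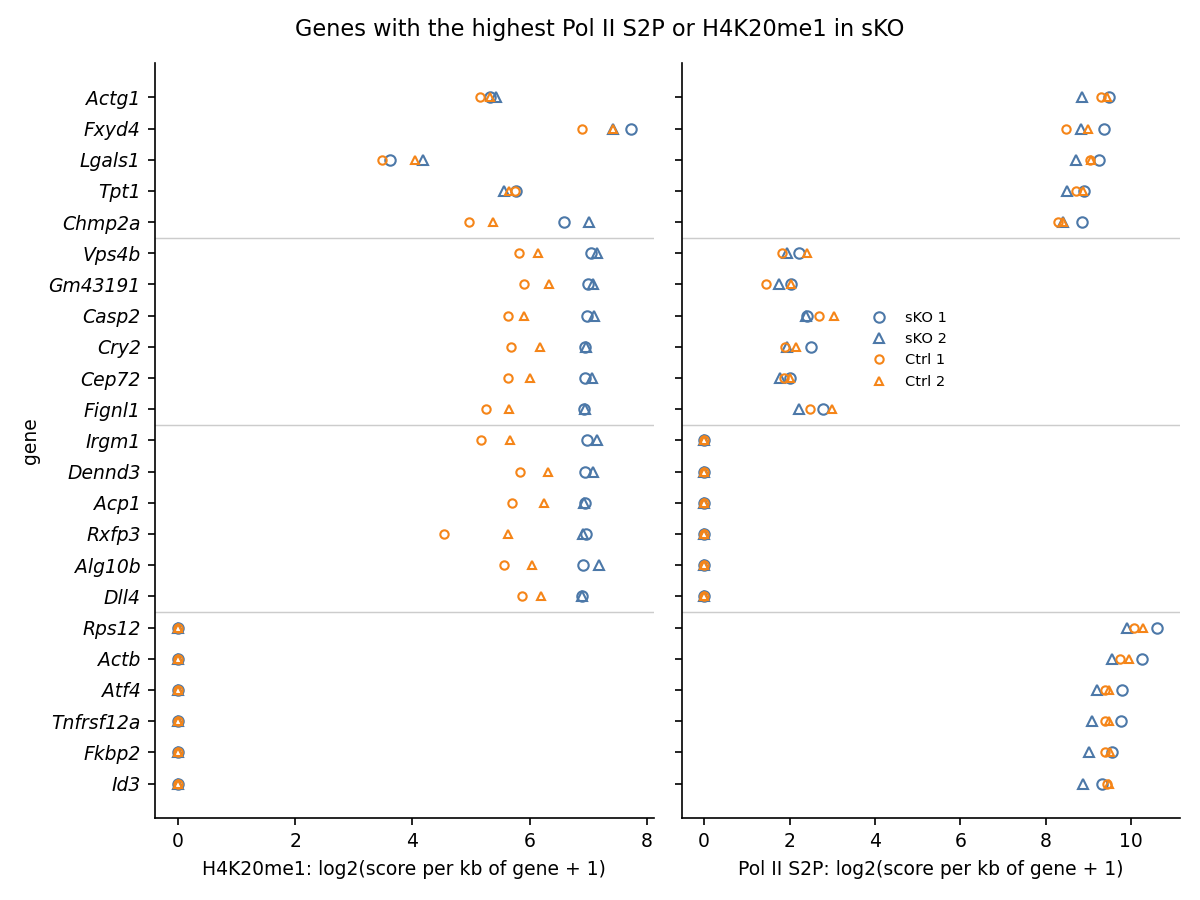
Score per kb of gene on a log2 scale (pseudocount 1) for genes chosen by rank in sKO, with 1 point per library. Grey lines separate, from the top, genes with both marks and the highest Pol II S2P, with both marks and the highest H4K20me1, with H4K20me1 and no Pol II S2P peak, and with Pol II S2P and no H4K20me1 peak. Genes of the second and the third group were ranked on their H4K20me1 in sKO. Nothing is therefore read from their blue sKO points lying to the right of both orange Ctrl points for H4K20me1. In the first group, ranked on Pol II S2P, the H4K20me1 values of the genotypes overlapped in 3 of the 5 genes.

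Pol II S2P peaks lay in H4K20me1 peaks more often than the share of the genome that those peaks cover. Of 50698 autosomal Pol II S2P peaks, 32626 (64.4%, exact 95% binomial interval 63.9% to 64.8%) overlapped a H4K20me1 peak by at least 1 base, and 61.0% lay in one entirely. H4K20me1 peaks covered 25.3% of autosomal sequence, 44.3% of the bases of protein-coding genes and 11.99% of the bases outside them. Neighbouring peaks are not independent, so the interval covers counting error only. Counting only the denser 50% of H4K20me1 peaks, which covered 16.1% of the sequence, gave an overlap of 47.1%.

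The overlap differed with location and less with strength. It was 53.1% for Pol II S2P peaks within 1 kb of the start of their gene, 72.6% in gene bodies, 77.5% at gene ends and 50.4% for peaks listed with no gene. The bases within 1 kb of protein-coding starts were covered over 42.4%. With peaks split by score into 10 groups of equal size, the overlap was 68.6% in the weakest group, 63.7% in the strongest and lowest, at 59.3%, in the group just below the strongest. In gene bodies it was 75.7% for the weakest 25% of peaks and 67.5% for the strongest, whereas at gene starts it was 51.6% and 56.2%. GC content of the peaks hardly differed, with a median of 59.6% inside and 59.5% outside H4K20me1 peaks at gene starts and 46.8% and 47.5% in gene bodies.

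**Figure D2:**
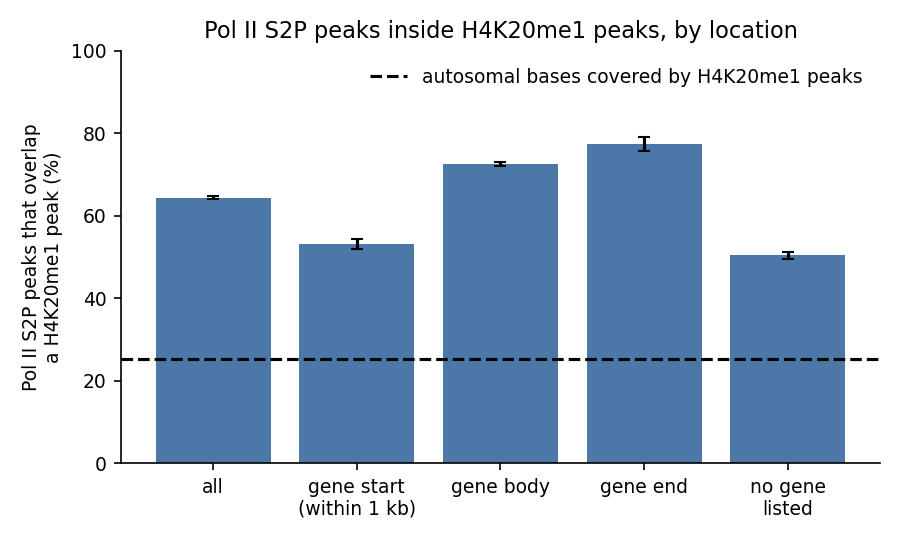
Percent of autosomal Pol II S2P peaks that overlap a H4K20me1 peak by at least 1 base, by place relative to the listed gene, with exact 95% binomial intervals. The dashed line is the 25.3% of autosomal sequence inside H4K20me1 peaks, and every bar stood above it, from 50.4% for peaks with no gene to 77.5% at gene ends.

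Pol II S2P peaks outside H4K20me1 peaks were often close to one. Of 18072 such peaks, 39.6% were within 5 kb of a H4K20me1 peak, a zone that holds 14.8% of uncovered bases, and 75.03% were within 20 kb, a zone that holds 32.8%. Inside H4K20me1 peaks of 40 kb and over, 5.76% of Pol II S2P peaks lay within 1 kb of an edge, against 3.001% of bases. The same pair was 31.9% and 28.2% for H4K20me1 peaks of 5 to 10 kb.

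Along genes the marks took different shapes. For protein-coding genes of at least 5 kb, split by Pol II S2P score per kb of gene into 3 groups of equal size and a group with no Pol II S2P peak, Pol II S2P peaks were narrow at the start and broad past the end. In the group with the highest Pol II S2P, 58.2% of genes had a Pol II S2P peak at the start, 11.2% at 4 kb into the gene and 31.3% at 2 kb past the end. In the same genes H4K20me1 peaks were present in 44.1% of genes at 1 kb upstream, 49.8% at the start and 66.8% at 4 kb into the gene. Over the genes longer than 8 kb (3079, 2907 and 2506 from the lowest to the highest Pol II S2P group, and 6222 with no Pol II S2P peak), 64.96%, 72.4% and 72.9% were inside a H4K20me1 peak at 8 kb into the gene, against 43.7% without Pol II S2P. At 1 kb upstream the 3 groups with Pol II S2P stood at 45.3%, 45.3% and 44.1%, and the group without at 36.6%.

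**Figure D3:**
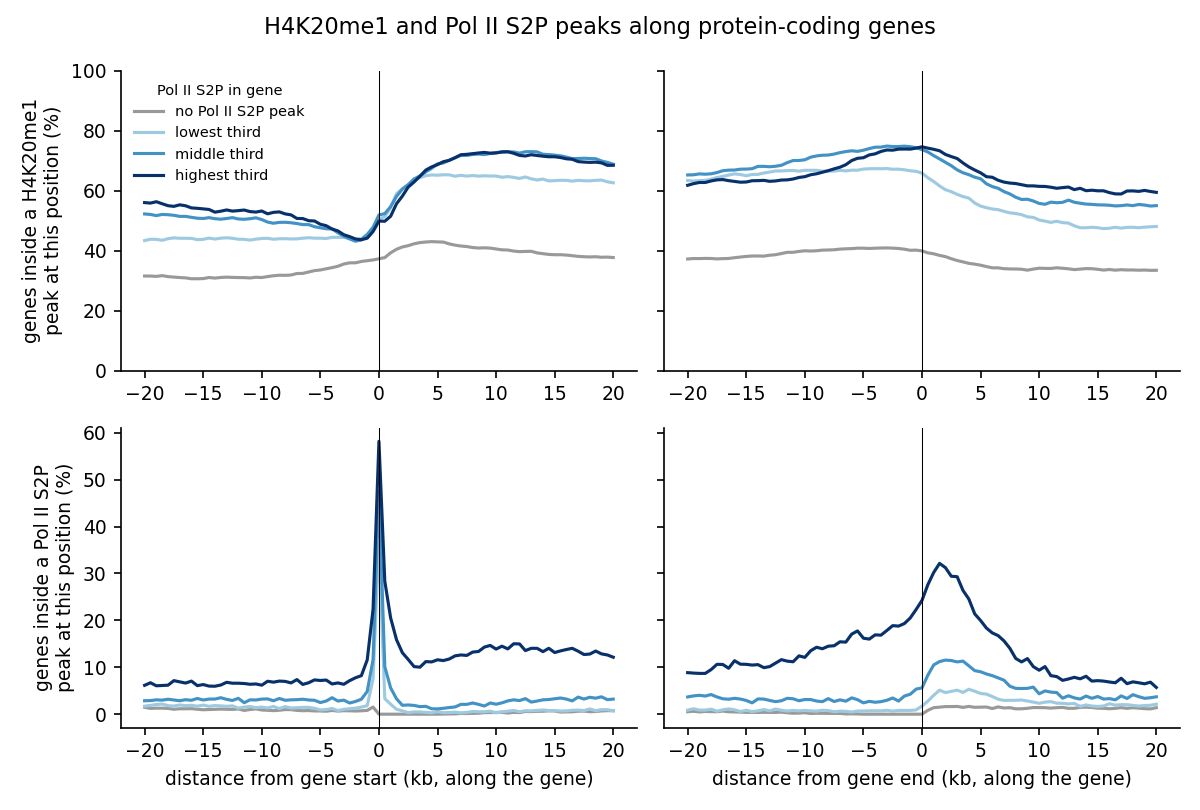
Percent of protein-coding genes of at least 5 kb that are inside a H4K20me1 peak (top) or a Pol II S2P peak (bottom) at each distance in kb from the gene start (left) or end (right), for genes with no Pol II S2P peak and for 3 groups of equal size by Pol II S2P per kb of gene in sKO. In genes with the highest Pol II S2P, H4K20me1 was lowest 1.5 kb upstream of the start (43.6%) and stood at 72.3% at 8 kb downstream of it, where Pol II S2P peaks covered 13.2% of genes. Genes of 5 to 8 kb have ended there.

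Genes with a Pol II S2P peak were covered further by H4K20me1 peaks than genes without one in every length class. Among the longest genes coverage went up with Pol II S2P per kb of gene, while gene length went down. The median protein-coding gene with no Pol II S2P peak was covered over 13.2% of its body, and the medians of the 3 groups with Pol II S2P were 72.3%, 82.6% and 77.4%. Genes without the polymerase were shorter, with a median of 11.3 kb against 61.8, 25.1 and 10.1 kb, so the groups were also formed within length classes. For genes of 20 to 60 kb the median coverage was 48.1% without Pol II S2P and 87.4%, 87.2% and 87.0% with it. For genes of at least 60 kb it was 20.9% without and 48.6%, 66.7% and 73.3% with it. The median lengths of these last 3 groups still differed, at 156, 111 and 96.7 kb. Pol II S2P per kb has gene length as divisor, and what length adds to this rise was not tested.

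**Figure D4:**
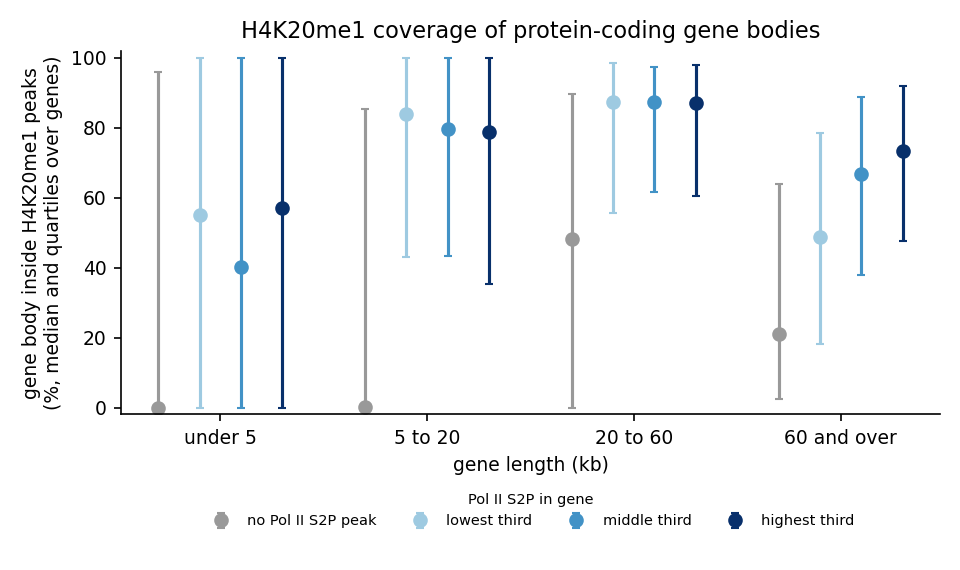
Share of each protein-coding gene body inside H4K20me1 peaks, as the median (point) and quartiles (line) over genes, by gene length in kb and Pol II S2P group. Within genes of 20 to 60 kb the 3 groups with Pol II S2P stood at 87.0% to 87.4%. Within genes of at least 60 kb they went from 48.6% to 73.3%, as their median length went from 156 to 96.7 kb.

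Rank correlations over genes depended on the measure and on the genes included. Over the 5908 genes with both marks, Spearman's rank correlation of H4K20me1 and Pol II S2P per kb of gene was 0.329 to 0.335 over the 4 pairs of sKO libraries and 0.275 to 0.303 in Ctrl. Both values share gene length as divisor, and per kb of gene both ran against length (rank correlation of -0.42 for H4K20me1 and -0.71 for Pol II S2P). For undivided sums it was 0.116 to 0.125 in sKO and 0.120 to 0.151 in Ctrl. Per kb of peak it was -0.016 to 0.0086 in sKO and -0.070 to -0.032 in Ctrl. Both marks were also read by coordinates over the gene body, in 10405 protein-coding genes with a Pol II S2P peak. In sKO this gave 0.0012 to 0.0093 over all of them, and 0.237 to 0.247 in the 2708 of at least 60 kb. In shorter genes the sKO value was below 0, at -0.027 to -0.018 for 20 to 60 kb, -0.069 to -0.060 for 5 to 20 kb and -0.024 to -0.0048 under 5 kb. In Ctrl it was -0.010 to 0.019 over all and 0.232 to 0.274 from 60 kb. For shorter genes Ctrl had 0.060 to 0.096 for 20 to 60 kb, 0.012 to 0.032 for 5 to 20 kb and -0.023 to 0.029 under 5 kb. Which genotype had the higher value thus depended on the measure and on gene length. Some of these genes had no H4K20me1 peak over the body. In the 9364 that had one, the sKO value was 0.122 to 0.130. By length it was then 0.225 to 0.234 from 60 kb, -0.041 to -0.032 for 20 to 60 kb, -0.070 to -0.064 for 5 to 20 kb and 0.044 to 0.058 under 5 kb. Genes are not replicates, so these values are descriptions.

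In sKO the median density of H4K20me1 hardly differed with the number of Pol II S2P peaks held, whereas in Ctrl it went up. Of the 41008 H4K20me1 peaks, 10517 (25.6%) overlapped a Pol II S2P peak, and these were longer (median 15.4 kb against 7.6 kb). Median score per kb of peak was 50.3 and 54.2 in the sKO libraries for peaks with Pol II S2P and 46.0 and 50 for those without. From peaks with 1 Pol II S2P peak (5157) to those with 8 or more (928), the median went from 49.9 to 51.4 in sKO 1 and from 54.0 to 55.1 in sKO 2. In Ctrl it went from 18.1 to 29.8 and from 22.8 to 38.5. The log2 difference between these classes was 0.04 and 0.03 in sKO against 0.69 and 0.73 in Ctrl, a sKO minus Ctrl difference of -0.67.

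The 4 libraries did not overlap between genotypes, but with 2 against 2 the exact two-sided permutation test gave p = 0.33, the smallest it can give. The comparison was chosen after seeing the data. Peaks with 8 or more Pol II S2P peaks were also longer (47.0 kb against 9.8 kb), and within H4K20me1 peaks of 20 to 40 kb the log2 difference was -0.0035 and -0.013 in sKO against 0.40 and 0.37 in Ctrl. The spread of density over all H4K20me1 peaks was narrower in sKO as well, with an interquartile range on the log2 scale of 0.31 and 0.32 against 0.58 and 0.65 (exact permutation test, p = 0.33). The H4K20me1 peaks were 1 set for both genotypes, whose total scores differed. What peaks that entered the set through 1 genotype alone add to these density contrasts was not tested.

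**Figure D5:**
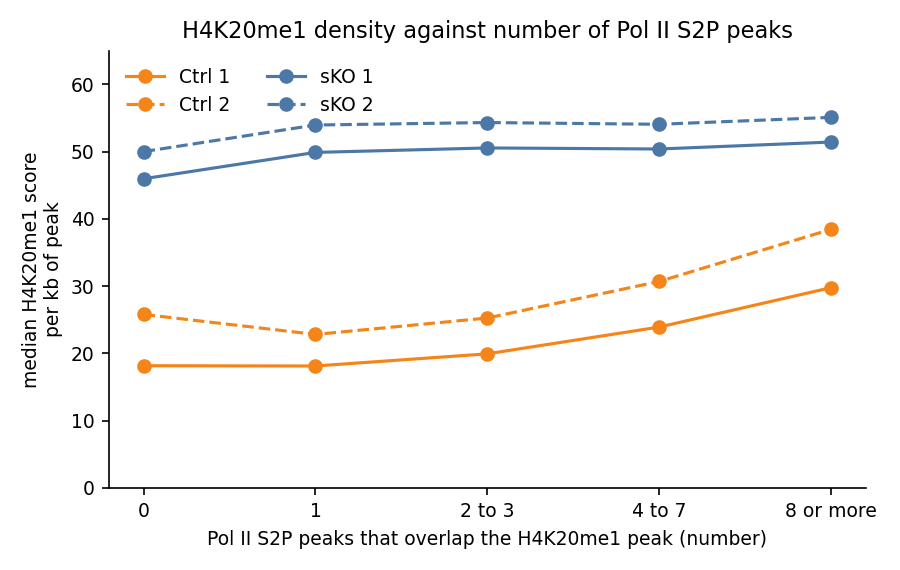
Median H4K20me1 score per kb of H4K20me1 peak (y axis, starting at 0) against the number of Pol II S2P peaks that overlap the H4K20me1 peak, with 1 line per library and peaks holding none at 0. The sKO lines stayed between 49.9 and 55.1 from 1 to 8 or more Pol II S2P peaks, and the Ctrl lines rose from 18.1 to 29.8 and from 22.8 to 38.5.

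The plain contrast, H4K20me1 peaks with against without Pol II S2P, overlapped between genotypes. The log2 difference in density was 0.13 and 0.11 in sKO and 0.15 and 0.0064 in Ctrl, and sKO minus Ctrl was 0.04 (exact permutation test, p = 1). Leaving out Ctrl replicate 2 turned this difference to -0.03. The share of Pol II S2P score inside H4K20me1 peaks was 64.6% and 63.9% in sKO against 61.6% and 63.3% in Ctrl, higher in both sKO libraries. The difference was 1.83 percentage points (exact permutation test, p = 0.33), within 0.96 to 2.69 when a library was left out.

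Genes with the most elongating polymerase gained the least H4K20me1 in sKO on the deposited scale. The change was fitted with limma on log2(score + 1), with a call needing a Benjamini-Hochberg adjusted p below 0.1 and a log2 change beyond 0.5 in size. Of 13750 genes tested, 12690 (92.3%) were called higher in sKO and 0 lower on the deposited scale, with a median log2 change of 1.11 over all genes. The count was 7392 without sKO replicate 1 and 5249 without sKO replicate 2. The share called higher was 93.9% of 6343 genes with no Pol II S2P peak and 91.0% of 7407 with one. Among genes carrying both marks, it went from 94.9% in the 10% with the lowest summed Pol II S2P score to 71.2% in the 10% with the highest, and the median log2 change from 1.17 to 0.83. The drop was present within each length class. It went from 94.2% to 75.2% from the lowest to the highest 20% in genes of 5 to 20 kb, from 94.7% to 73.5% at 20 to 60 kb and from 96.2% to 84.8% above 60 kb.

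The density behind that drop differed mainly in Ctrl. In the 10% of genes with the highest Pol II S2P the median score per kb of peak was 24.5 and 31.3 in Ctrl against 19.7 and 26.2 in the lowest, whereas in sKO it was 48.5 and 52.4 against 49.0 and 53.2. Scaling every library to the same total moved the median change to 0.13 and left 2858 genes (20.8%) higher and 783 (5.69%) lower. In the 10% with the highest Pol II S2P 14.7% were then higher and 26.6% lower, and in the lowest 23.0% and 4.06%. Ranked by Pol II S2P per kb of gene instead, the share called higher with equal totals went the other way, from 17.3% in the lowest 10% to 28.3% in the highest, the share called lower went from 1.35% to 21.5%, and the median change from 0.20 to 0.01. By that ranking the share called higher on the deposited scale went from 98.3% to 76.3%, and the median gene length from 202 kb to 12.7 kb. By summed score the median change with equal totals was -0.15 in the highest 10% against 0.19 in the lowest, so the direction in the highest depended on the scale. Whether the spike-in scale holds between libraries was not tested.

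These 5 genes with high Pol II S2P and both marks are examples, beside the 92.3% called higher over all genes. Actg1 had H4K20me1 sums of 99 and 112 in Ctrl against 111 and 119 in sKO, a log2 change of 0.13 ± 0.41 (SE, limma, adjusted p = 0.767). Tpt1 had 182 and 168 against 184 and 158, a change of -0.04 ± 0.35 (limma, adjusted p = 0.918). The Ctrl and sKO values overlapped in both genes. Chmp2a, with 85 and 113 against 266 and 358, was the 1 gene of the 5 called higher (1.64 ± 0.34, limma, adjusted p = 6.6e-06). The calls depended on the scale. With equal totals Actg1 (-0.85), Fxyd4 (-0.55) and Tpt1 (-1.01) were called lower by limma, Chmp2a (0.67) was still called higher, and Lgals1 was not called. All 12 named genes with the highest H4K20me1 were called higher on the deposited scale and 3 (Fignl1, Irgm1 and Rxfp3) with equal totals, but they were ranked on their sKO level, so nothing is read from these counts.

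No gene passed the test for Pol II S2P on the deposited scale, and the libraries did not settle the direction of the median. Of 8531 genes tested with limma, 0 were called higher (0%) and 0 lower (0%), 100 had an unadjusted p under 0.05, and the median log2 change was 0.09. The median turned to -0.11 when Ctrl replicate 1 was left out and to -0.13 when sKO replicate 1 was. It became 0.29 on leaving out Ctrl replicate 2 and 0.32 on leaving out sKO replicate 2. With 1 library left out, 9 to 177 genes had an unadjusted p under 0.05, and 2 genes were called lower without Ctrl replicate 2. With all 4 libraries the median was 0.09 in 5853 genes with a H4K20me1 peak and 0.08 in 2678 without one. On the scale of equal library totals the median was -0.05, 108 (1.27%) were called higher and 73 (0.856%) lower, and the shares were 1.09% and 0.598% with a H4K20me1 peak and 1.64% and 1.42% without. Standard errors were wide on the deposited scale, so changes of this size could pass unseen, as with Actb (0.07 ± 0.42, limma, adjusted p = 1).

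Kmt5b itself (chr19:3767421-3818303) carried H4K20me1 with sums of 1934 and 2196 in sKO and 1332 and 1740 in Ctrl. Its Pol II S2P sums were 48 and 22 in sKO and 24 and 62 in Ctrl, under the limit in the mean, so the polymerase score did not check the deletion. Kmt5a and Kmt5c carried both marks. Kmt5c rose in H4K20me1 from 155 and 259 to 683 and 642 (log2 change 1.72 ± 0.28, limma, adjusted p = 1.3e-08), while Kmt5a had 476 and 660 against 712 and 739 (0.37 ± 0.27, adjusted p = 0.170). With equal totals Kmt5c was still called higher, and Kmt5a (-0.61) and Kmt5b (-0.54) were called lower.

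Most satellite cell and myogenic genes carried Pol II S2P, with or without H4K20me1. Of 15 genes, 9 carried both marks, 2 H4K20me1 alone and 3 Pol II S2P alone, beside 5641, 5930 and 2136 of 14195 listed protein-coding genes. Myod1 had Pol II S2P sums of 887 and 649 in sKO against 1329 and 1110 in Ctrl, without overlap but not called (log2 change -0.68, limma, adjusted p = 1). It had no overlapping H4K20me1 peak, with the nearest 2.7 kb away, and neither had Myog (0.252 kb). Pax7 (chr4) carried both, with H4K20me1 sums of 1749 and 1968 in sKO against 533 and 708 in Ctrl (1.59 ± 0.27, limma, adjusted p = 3e-08) and Pol II S2P sums of 355 and 332 against 274 and 356. Des, whose Pol II S2P sums were 3212 and 1987 in sKO, had H4K20me1 sums of 250 and 216 against 187 and 304 in Ctrl (-0.04 ± 0.31, adjusted p = 0.907). Of 11 myogenic genes tested for H4K20me1, 9 were called higher, beside 92.3% of all genes. With equal totals 5 were called higher, Pax7 among them, and 2 lower, Des (-1.02) and Mef2a (-0.80), beside 20.8% and 5.69% of all genes.

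Ribosomal protein and immediate early genes often carried Pol II S2P alone. Of 94 ribosomal protein genes, 78 were listed, 69 carried Pol II S2P and 22 of these (31.9%) also carried H4K20me1, beside 72.5% of protein-coding genes with Pol II S2P. Of the 47 with Pol II S2P alone, 27 were touched by no H4K20me1 peak. The list was taken by name and also caught S6 kinase genes and Rps19bp1. Without them, 15 of 62 genes with Pol II S2P (24.2%) carried H4K20me1. The full list had a median length of 3.6 kb against 26.9 kb for listed protein-coding genes. Of 16 immediate early genes, which encode fast-responding transcription factors, 5 carried both marks and 8 Pol II S2P alone, 7 of the 8 with no overlapping H4K20me1 peak. Junb, Jund, Ier2, Fosb, Klf6 and Myc were among the 8, whereas Egr1 and Jun carried both. The listed immediate early genes were also short, with a median of 5.16 kb. Over all listed protein-coding genes, 2136 of 14195 carried Pol II S2P alone. Fos had H4K20me1 sums of 995 and 1078 in sKO against 279 and 298 in Ctrl (1.84 ± 0.27, limma, adjusted p = 2e-10) and no Pol II S2P peak.

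The elongation, replication and Ras groups each held genes with both marks and genes with 1 mark alone. Over all 14195 listed protein-coding genes 39.7% carried both, with a median body coverage of 75.3%. Of 25 genes of the elongation machinery, 21 were listed and 12 carried both (57.1% of those listed), including Polr2a (the largest polymerase subunit), Cdk12, Cdk13 and Ccnt1, and the listed genes had a median body coverage of 96.3%. Setd2, a methyltransferase of H3K36, had H4K20me1 sums of 7585 and 8228 in sKO and Pol II S2P sums of 28 and 10. Of 22 replication licensing and fork genes, 20 were listed and 11 carried both (55% of those listed), among them Mcm4, Mcm5, Mcm6 and Cdc6. Orc1 carried H4K20me1 alone, and the sliding clamp gene Pcna Pol II S2P alone. Of 12 Ras pathway genes, 7 carried both (58.3%), including Map2k1 and Nf1, and 4 H4K20me1 alone, including Hras and Braf.

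The p53 response and cytoskeletal groups were divided. Of 12 p53 response genes, 5 of the 11 listed carried both marks (45.5%, beside 39.7% of listed protein-coding genes), including Mdm2 and Sesn1, and 5 Pol II S2P alone. Cdkn1a, which encodes the cell cycle inhibitor p21, had Pol II S2P sums of 1083 and 798 in sKO against 743 and 923 in Ctrl and lay 36.7 kb from the nearest H4K20me1 peak. Of 15 cytoskeletal genes, 10 carried both (66.7%) and 5 Pol II S2P alone, so each of them carried Pol II S2P. Myh9 (non-muscle myosin) had Pol II S2P sums of 5499 and 3766 and H4K20me1 sums of 4112 and 4284 in sKO, against 2964 and 3543 for H4K20me1 in Ctrl (0.37 ± 0.28, limma, adjusted p = 0.196). With equal totals Myh9 was called lower (-0.61). Few olfactory and vomeronasal receptor genes carried Pol II S2P. Of 1454 genes, 94 were listed, with 82 carrying H4K20me1 alone, 5 Pol II S2P alone, 7 neither above the limit and 0 both. No gene of these lists was called for Pol II S2P on the deposited scale, where none of all 8531 genes tested was. With equal totals Zmat3 and Olfr1390 were called higher and Myod1, Pcna and Rpl26 lower, beside 1.27% and 0.856% of all genes.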

How the data were processed

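The authors trimmed reads with Trimmomatic 0.39, aligned them to mm10 (GRCm38) with STAR 2.7.3a, retaining unique alignments, and took out duplicates by Picard 2.21.7. The deposited score is their coverage of a union peak after spike-in normalisation with S2 DNA, in whole numbers, and the deposited fraction is the share of a peak in its listed gene in steps of 0.1. The peak callers listed are SICER 0.0.41 and MACS2 2.1.1. Read depth is not part of these files, so no counting error was given for scores.

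Scores were summed per gene identifier over autosomal peaks. Genotypes were compared with limma 3.58.1 (R 4.3.3) on log2(score + 1) over genes with a mean above 50 over 4 libraries, since spike-in normalised scores are not counts, and single values with exact two-sided permutation tests (scipy 1.17.1). Symbols missing from the files came from GENCODE M21 (3281 of 3309 identifiers). The genes named were the 6 autosomal protein-coding genes of at least 1 kb with the highest score per kb in the lower sKO library in each of 4 classes (both marks ranked by either mark, and each mark with no peak of the other), Kmt5b and members of the gene lists. Members and lists were chosen with earlier results of these data known. Alternatives covered limits, scaling, pseudocounts, overlap rules and left-out replicates. The IgG libraries were not analysed here. Some items the rules select are not reported here.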

Additional observations from a re-analysis of the deposited data

Results flagged for a closer look

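In H4K20me1 peaks of 2 to 20 kb, peaks with a Pol II S2P peak were denser than those without in both sKO libraries (log2 differences of 0.11 and 0.10) and less dense in both Ctrl libraries (-0.11 and -0.31), a sKO minus Ctrl difference of 0.31. The exact permutation test gave p = 0.33, the smallest that 2 against 2 allows. This setting was listed here because its sign differed between the genotypes, so the split of the libraries is no separate support. Over H4K20me1 peaks of all lengths the difference was 0.04, with overlap between genotypes, and -0.03 without Ctrl replicate 2. What peaks that entered the shared set through 1 genotype alone add was not tested.

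On the X chromosome, left out of the comparisons, 402 of 620 Pol II S2P peaks (64.8%) overlapped a H4K20me1 peak, with 38.7% of its sequence covered. The share of X-linked Pol II S2P score inside H4K20me1 peaks was 64.1% and 64.3% in sKO (mean 64.2%) against 60.4% and 61.4% in Ctrl. The share was listed here because the genotypes did not overlap, and the difference was not tested.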

How the results depend on the processing

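The count of genes with both marks stayed within 1.5 times of 5908 under every limit tried. The share of Pol II S2P genes with H4K20me1 was 67.6% at a limit of 20, 69.9% at 100, 67.2% with no limit and 87.8% by coordinates, and 68.3% to 68.8% with 1 replicate left out. The overlap of peaks was 63.6% when 50% of the Pol II S2P peak had to lie inside, 47.1% with the denser H4K20me1 peaks and 61.4% for Pol II S2P peaks above 50. The rank correlation per kb of gene was 0.12 for plain sums, 0.0021 per kb of peak, 0.12 weighted by the share of the peak in the gene, 0.315 for protein-coding genes and 0.313 with no limit, and 0.330 to 0.335 with 1 replicate left out. Genes called higher for H4K20me1 numbered 2858 with equal totals, 1376 (and 1486 lower) after quantile normalisation, and 5249 to 13376 with 1 replicate left out, the lowest without sKO replicate 2 and 7392 without sKO replicate 1. For Pol II S2P, 108 were called higher with equal totals, 112 after quantile normalisation, 1 with no filter and 0 with any replicate left out (2 lower without Ctrl replicate 2), and the median log2 change ran from -0.13 to 0.32. The density contrast of H4K20me1 peaks with and without Pol II S2P turned to -0.027 without Ctrl replicate 2 and was 0.115 without Ctrl replicate 1. The contrast by number of Pol II S2P peaks ran from -0.69 to -0.65 with 1 replicate left out and was -0.40 at 20 to 40 kb. The share of Pol II S2P score inside H4K20me1 peaks differed by 0.96 to 2.69 points. With the replicate number as a block, limma called 12718 H4K20me1 genes and 0 Pol II S2P genes higher (9 of the latter at an unadjusted p under 0.05). Same-numbered libraries of an antibody did not deviate together (correlations of 0.041 and -0.043), but 2 libraries per genotype cannot settle whether the numbers pair them. The cause of these shifts was not tested.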
